A study of Mus musculus with 4 samples.

Results

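Brush border peptidases and peptide transporters carry out the last steps of protein digestion. The set described here holds 9 genes, the oligopeptide transporters Slc15a1 and Slc15a2 and the membrane peptidases Anpep, Enpep, Naaladl1, Xpnpep2, Dpp4, Mme and Ace. They are 9 of the 55487 genes listed for RNA-seq libraries of mouse small intestinal (SI) organoids, and all 9 were among the 17155 genes that passed a filter on low counts. Slc15a2 is the one that passed it through the mimic libraries alone, since its controls held 3 and 0 counts. The genes were picked by name with their expected counts and their differences between the groups already known, so their changes are given as a description. No p-value is printed for them. Where they are set against the calling rule given below, which uses an adjusted p, that is not read as a test. SI organoids are cultures of intestinal epithelium started from crypts. All carried a lentivirus and grew under puromycin selection (2 μg/ml). The control organoids (replicates 1 and 2) expressed a miRNA mimic control and the others (replicates 3 and 4) a miR-181a-5p mimic, which adds to the mature miRNA that lowers mRNAs with matches to its seed. The strain, sex and age of the mice and the promoter that drives the mimic are not given in the sources used here, nor is it said whether libraries of a group came from separate cultures, so that p-values measure only the spread between these libraries.

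Proteins reach the small intestine as short peptides after the stomach and pancreas have acted on them. Zinc and serine peptidases anchored in the microvillus membrane of enterocytes trim these peptides to amino acids, dipeptides and tripeptides, each enzyme with its own preference for the residue or bond it cuts. Dipeptides and tripeptides then enter the cell with protons through transporters of the Slc15 family and are split by peptidases of the cytosol, while free amino acids use separate carriers.

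The mature miR-181a-5p is shown because its seed, bases 2 to 8 in capitals, sets which mRNAs it can pair with. It is encoded on chromosomes 1 and 2, by Mir181a-1 and Mir181a-2 (RefSeq, GRCm38.p6).
mmu-miR-181a-5p: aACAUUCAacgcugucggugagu
The letters that pair with this seed, TGAATGT, were searched for in each member, over its coding sequence and its longest 3′ UTR in GENCODE M21. A single match was found, in the 3′ UTR of Enpep, at base 698 of its 1104 bases. It is shown with its flanks because it is the only one among the 9 genes, and it lies at chr3:129269564-129269592 on the minus strand of GRCm38, with the match in capitals.
Enpep 3′ UTR: ttactcctgagTGAATGTgacggcaccat
Of 12840 tested protein-coding genes with a 3′ UTR of at least 50 bases, 18.4% held the 7 letters in the 3′ UTR and 11.7% held them in the coding sequence. The 3′ UTRs of the other members ran from 237 bases in Naaladl1 to 5698 in Mme and did not contain them. Enpep was higher with the mimic, as given with its counts.

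Sequence just upstream of the transcription start is shown for both peptide transporters, which differed in their change, and for Enpep. In the RefSeq promoter table (GRCm38.p6) 8 of the 9 genes matched an entry, all but Naaladl1, with 11 promoters in all, each running from 250 bases before the start to 50 after it. The 150 bases before each start are printed 5′ to 3′ on the strand of the gene. Capitals mark a GATA site, AGATAA, in Slc15a2. They mark the core of an HNF4 site, CAAAGT, in Slc15a1. In Enpep they mark the TATA box as read on the opposite strand. Slc15a2 lies at chr16:36784963-36785112, Slc15a1 at chr14:121505255-121505404 and Enpep at chr3:129332750-129332899, all on the minus strand.
Slc15a2: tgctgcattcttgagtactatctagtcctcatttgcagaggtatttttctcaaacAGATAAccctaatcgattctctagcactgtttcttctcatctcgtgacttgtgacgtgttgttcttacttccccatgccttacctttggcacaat
Slc15a1: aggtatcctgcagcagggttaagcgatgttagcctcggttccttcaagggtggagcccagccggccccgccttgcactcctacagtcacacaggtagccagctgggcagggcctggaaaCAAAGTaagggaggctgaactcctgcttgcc
Enpep: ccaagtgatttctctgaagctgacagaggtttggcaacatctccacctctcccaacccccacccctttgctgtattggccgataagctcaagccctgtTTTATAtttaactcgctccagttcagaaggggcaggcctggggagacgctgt
Motifs were searched on both strands of the whole promoters, without regard to overlap with one another. CAAAGT was found in Slc15a1, Mme and Ace and in 14.4% of the 32851 promoters of the table, and AGATAA in Slc15a2 and Dpp4 and in 11.2%. TATAAA was found in Ace, Dpp4 and Enpep (13.6% of promoters). AGGTCA, the core of a nuclear receptor site, was found in Ace (16.3%), only in its window at the start at 105975189. TTTATG and TTTATT, both forms of a CDX site, and GTTAAT, the core of an HNF1 site, were in 11.9%, 19.6% and 7.10% of promoters and in none of the members' windows. For Anpep the window searched lies at the start at 79848210. The start of its shorter transcript Anpep-201, at 79842352, was not searched.

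Libraries held between 31104884 and 38111731 expected counts, which are RSEM's estimates of the reads from each gene. The common biological coefficient of variation, the spread between replicates shared across genes, was 0.130. Calls were made with edgeR's quasi-likelihood test at an adjusted p under 0.05 and a fold change of at least 2. Over all tested genes 95 were higher (0.554%) and 244 lower (1.42%) with the mimic under that rule. By limma on log2(TPM + 1), which covered another set of 14035 genes under its own filter on TPM, 30 were higher and 41 lower. With the adjusted p alone 207 were higher (1.21%) and 373 lower (2.17%) in edgeR. At an unadjusted p under 0.05 in edgeR, 4201 of the 17155 tested genes differed. Normalized CPM, counts scaled to one library size after TMM correction, did not overlap between the groups for 58.4% of genes. With 2 libraries per group an exact permutation test of one gene cannot go below 0.333. Epithelial identity markers were high in every library, with Epcam between 615 and 713 TPM, a length-normalized abundance. None of those 8 markers and none of 14 enterocyte markers passed an adjusted p of 0.05 in edgeR's quasi-likelihood test. The paper's own edgeR results list Fabp1, 1 of the 14, as lower at an FDR under 0.05, unlike Vil1, Apoa4, Cbr1 and Alpi. In the test used here the log2 fold change of Fabp1 was -0.91, with an adjusted p of 0.113. At an unadjusted p under 0.05 in edgeR, 1 epithelial identity marker was higher and 1 lower. Of the 14 enterocyte markers, 1 was higher and 2 were lower at that threshold. By log2 fold change 10 of the 14 lay below 0 and 4 above it, with a median of -0.21. Anpep, which the paper counts as an enterocyte marker, is a member here and not in that list. Ace is also made by endothelial cells, and Anpep, Mme and Dpp4 by leukocytes. The 6 endothelial markers summed to 0.39 to 1.0 TPM with Cdh5, Kdr and Emcn at 0 in every library. The 8 leukocyte markers summed to 2.84 to 4.73 TPM with Ptprc at no more than 0.04, and the 8 mesenchymal markers to 0.50 to 0.72 TPM with Col1a2, Col3a1, Dcn and Lum at 0. Of the epithelial lineage lists, 1 of 6 stem cell markers (Lgr5) and 1 of 7 goblet cell markers (Spink4) were lower at an adjusted p under 0.05 in edgeR. None of the Paneth, enteroendocrine or tuft cell markers passed. At an unadjusted p under 0.05, 1 stem cell marker was higher and 1 lower, and 1 goblet cell marker was higher and 2 lower. At that threshold 3 Paneth cell markers were lower and 2 enteroendocrine cell markers higher. By log2 fold change 3 stem cell markers lay above 0 and 3 below, 3 goblet cell markers above and 4 below, and all 7 tested Paneth cell markers below. The stem cell markers summed to 603 and 392 TPM in the controls against 460 and 614 in the mimic libraries, and the Paneth cell markers to 1918 and 773 against 857 and 984. The part of these cell types in the members' values was not tested.

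Among the 9 genes, 3 were higher with the mimic under the rule above (Slc15a2, Naaladl1 and Enpep), 1 was lower (Anpep) and 5 were on neither side of it. Enpep was not past it in edgeR's robust test. By limma on log2(TPM + 1) Naaladl1 and Slc15a2 were past it, on log2(TPM + 0.1) Naaladl1 was, and without a filter on low TPM no member was. The rule was known when they were picked, so nothing is read from these counts beside the 0.554% and 1.42% of all genes. Between the smallest log2 change past the rule, 1.56 in Enpep, and the largest outside it, 0.37 in Ace, there was no member. The groups did not overlap in normalized CPM for 5 members, the 4 called ones and Ace, and overlapped for the other 4. Over all tested genes the groups of 58.4% did not overlap, so nothing is read from that count. The median log2 fold change was 0.18 over the members and -0.01 over all tested genes. In bulk RNA, fewer cells of a type and less RNA per cell cannot be told apart.

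**Figure D1:**
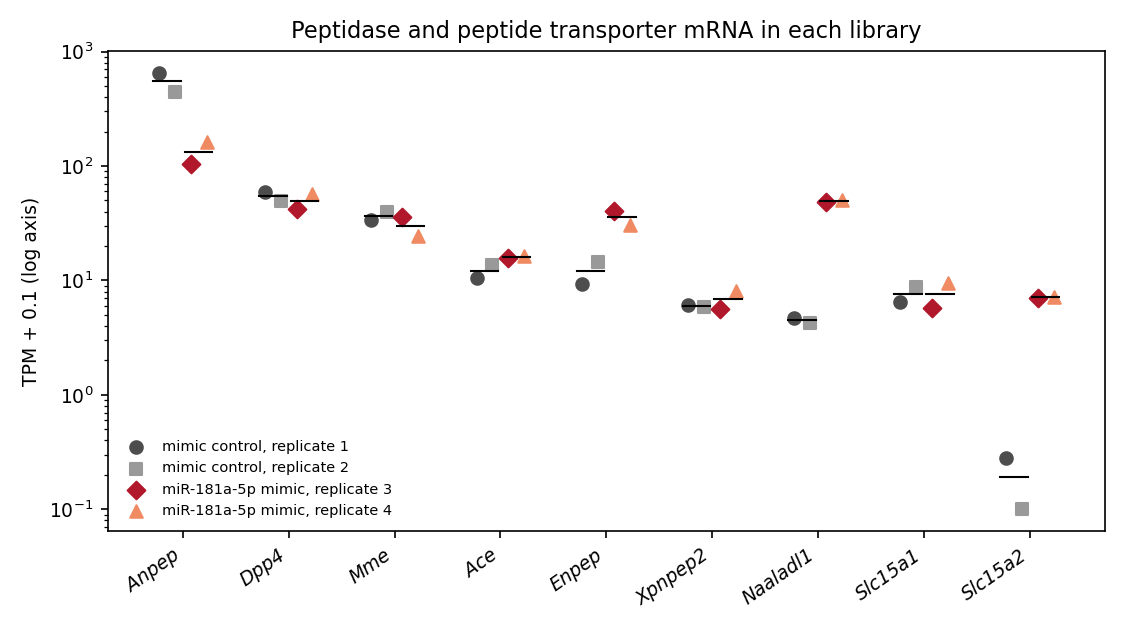
TPM of each of the 9 genes in each library, plotted as TPM + 0.1 on a log axis. Symbols are libraries and short lines are the means of the 2 libraries of a group. Anpep lay at 448 and 656 TPM in the controls against 103 and 162 in the mimic libraries, while Naaladl1, Enpep and Slc15a2 lay higher with the mimic.

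Slc15a1 encodes PEPT1, the proton-coupled carrier for dipeptides and tripeptides of the small intestinal brush border (chromosome 14, 121459621 to 121505252). It had 628 and 678 expected counts in the controls against 448 and 785 in the mimic libraries. The mimic libraries enclosed both controls, and the log2 fold change was -0.07 with a standard error of 0.23. Without mimic replicate 3 it was 0.21 and without mimic replicate 4 it was -0.41, so its sign depends on the library.

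Slc15a2 encodes PEPT2, the high-affinity relative of PEPT1 that is best known from kidney (chromosome 16, 36750177 to 36784962). It had 3 and 0 expected counts in the controls against 276 and 284 in the mimic libraries. Both mimic libraries lay far above both controls and close to each other. The ratio of the summed counts, 560 against 3 and scaled for library size, was 193, with an exact 95% interval of 65.8 to 941 that covers counting error only. A fitted log2 fold change for this gene depends on the small count added to the controls and ran from 2.88 to 11.1 over the alternatives, so it is not used here.

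Set against Slc15a1 in the same library, Slc15a2 took 0.475% and 0% of the counts of both carriers in the controls against 38.1% and 26.6% in the mimic libraries. In counts Slc15a1 stayed above Slc15a2 in every library, by 1.62 and 2.76 times in the mimic libraries. In TPM, which divides by length, the order in mimic replicate 3 turned, with Slc15a1 at 5.61 and Slc15a2 at 6.91. In mimic replicate 4 Slc15a1 was at 9.43 TPM and Slc15a2 at 7.09. The order in TPM depends on the mean transcript length that RSEM assigned to Slc15a2, which is given with the lengths of the other members.

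**Figure D2:**
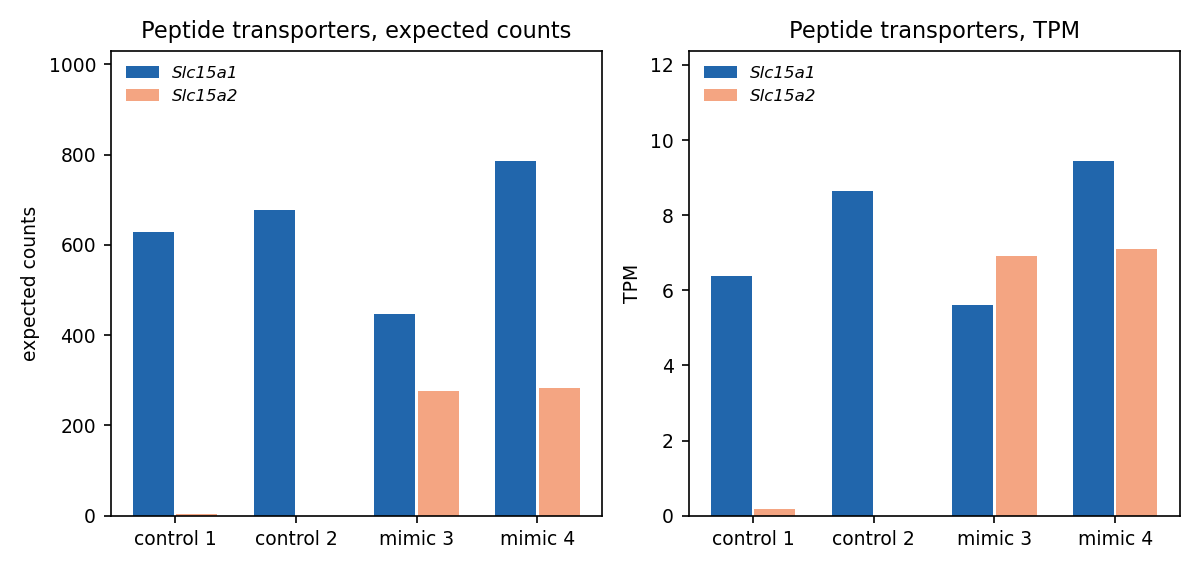
Expected counts (left) and TPM (right) of Slc15a1 and Slc15a2 in each library, one bar per gene and library. Slc15a1 varied between 448 and 785 counts, while Slc15a2 went from 3 and 0 counts in the controls to 276 and 284 with the mimic. In TPM the bars of both genes were near each other in the mimic libraries.

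Anpep encodes aminopeptidase N, which removes neutral residues from the N terminus of peptides and is among the most abundant proteins of the microvillus membrane (chromosome 7, 79821803 to 79861059). It had 70983 and 38592 expected counts in the controls against 9051 and 14663 in the mimic libraries. Both mimic libraries were below both controls, and the controls themselves differed 1.49-fold in normalized CPM. The log2 fold change was -2.14 with a standard error of 0.23, that is 4.42-fold lower, and lay between -2.42 and -1.84 when any 1 library was left out.

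Enpep encodes aminopeptidase A, which removes acidic residues from the N terminus (chromosome 3, 129269175 to 129332720). It had 955 and 1180 expected counts in the controls against 3389 and 2771 in the mimic libraries. Both mimic libraries were above both controls, opposite to Anpep. The log2 fold change was 1.56 with a standard error of 0.22, that is 2.96-fold higher, and lay between 1.28 and 1.91 when any 1 library was left out. This is the member with the seed match printed above.

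Naaladl1 encodes a zinc peptidase related to glutamate carboxypeptidase II and known from the ileum (chromosome 19, 6105782 to 6115792). Its expected counts were 361 and 257 in the controls against 3029 and 3298 in the mimic libraries. The groups were far apart beside the small difference within each, with means of 8.85 ± 0.794 normalized CPM in the controls against 94.7 ± 2.88 in the mimic libraries (SD, n = 2 each). The log2 fold change was 3.42 with a standard error of 0.12, that is 10.7-fold higher.

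Xpnpep2 encodes the membrane form of aminopeptidase P, which releases an N-terminal residue that is followed by proline (chromosome X, 48108725 to 48136981). It had 617 and 464 expected counts in the controls against 476 and 708 in the mimic libraries. The groups overlapped, and the log2 fold change was 0.18 with a standard error of 0.16. Without mimic replicate 4 it was -0.03.

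Dpp4, Mme and Ace cut peptides in other ways. Dpp4, dipeptidyl peptidase 4 (chromosome 2, 62330073 to 62412231), takes off N-terminal dipeptides that end in proline or alanine and also inactivates incretin hormones. It had 6640 and 5080 expected counts in the controls against 4160 and 5956 in the mimic libraries, overlapping groups with a log2 fold change of -0.17 and a standard error of 0.13. Mme, or neprilysin (chromosome 3, 63241537 to 63386030), is an endopeptidase that cuts before hydrophobic residues. Its 4801 and 4435 counts in the controls against 3941 and 2955 in the mimic libraries gave a log2 fold change of -0.36 with a standard error of 0.19, and in normalized CPM mimic replicate 3 lay just above control replicate 1.

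Ace encodes angiotensin-converting enzyme, which removes C-terminal dipeptides (chromosome 11, 105967945 to 105989964). It had 1434 and 1493 expected counts in the controls against 1781 and 1917 in the mimic libraries. Both mimic libraries were above both controls, but by little, with a log2 fold change of 0.37 and a standard error of 0.13. It is the member nearest to the rule from outside. The groups of 58.4% of all tested genes were likewise apart.

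Because TPM is scaled by length, it allows levels of different genes to be ordered. In the controls the order of the mean TPM was Anpep (552), Dpp4 (54.3), Mme (36.8), Ace (11.9), Enpep (11.9), Slc15a1 (7.5), Xpnpep2 (5.86), Naaladl1 (4.38) and Slc15a2 (0.0900). Of these neighbours, Ace and Enpep were the only pair whose libraries overlapped. With the mimic the order was Anpep (133), Dpp4 (49.7), Naaladl1 (49.0), Enpep (35.6), Mme (29.9), Ace (15.9), Slc15a1 (7.52), Slc15a2 (7.0) and Xpnpep2 (6.80). Here Dpp4 and Naaladl1 overlapped, as did Enpep and Mme, Slc15a1 and Slc15a2, and Slc15a2 and Xpnpep2. Naaladl1 moved from the lowest of the 7 peptidases to the level of Dpp4.

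The make-up of the peptidase mRNA differed with these moves. Anpep supplied 84.2% and 77.9% of the summed TPM of the 7 peptidases in the controls against 35.5% and 46.6% in the mimic libraries. Naaladl1 supplied 0.595% and 0.718% in the controls against 16.5% and 14.4% in the mimic libraries. For Enpep the shares were 1.19% and 2.52% in the controls against 13.9% and 8.79%. A lower share of Anpep raises the shares of the others. That of Dpp4 was 7.56% and 8.65% in the controls against 14.6% and 16.4% in the mimic libraries, while its TPM overlapped between the groups. The sum itself was 778 and 575 TPM in the controls against 291 and 349 TPM in the mimic libraries, but without Anpep it was 123 and 127 TPM in the controls against 187 and 186 TPM in the mimic libraries. The ratio of Anpep to Enpep in TPM was 70.6 and 30.9 in the controls against 2.55 and 5.30 in the mimic libraries. Each share rests on genes that were picked with these levels known.

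**Figure D3:**
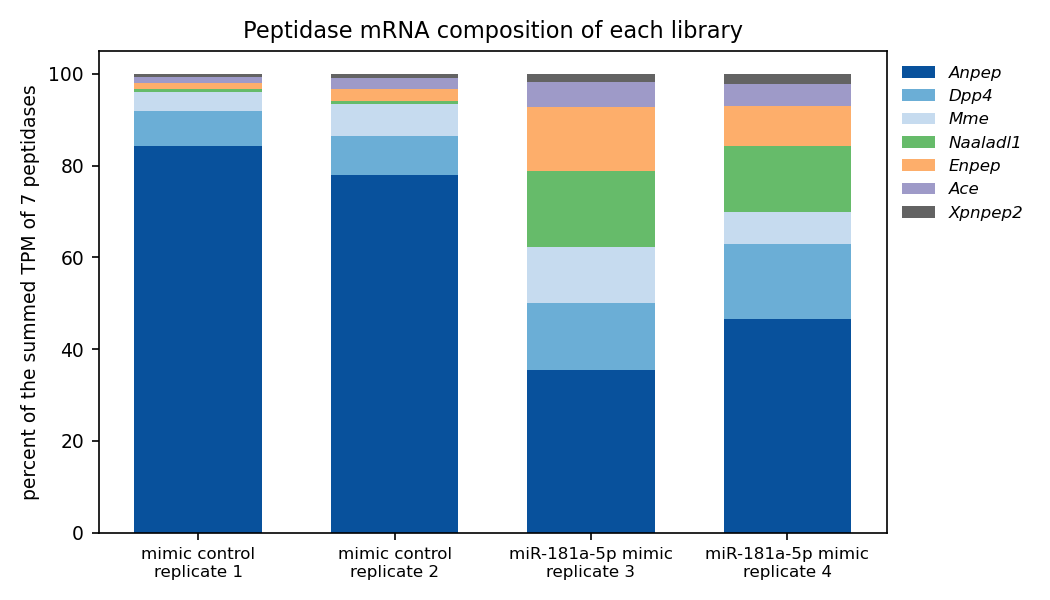
Share of the summed TPM of the 7 peptidases taken by each gene, one stacked bar per library, in percent. Anpep filled 84.2% and 77.9% of the control bars and 35.5% and 46.6% of the mimic bars. Each of the other peptidases took a larger share of the mimic bars, also Dpp4, Mme and Xpnpep2, whose TPM overlapped between the groups. For Mme the shares nearly met, at 4.33% and 6.93% of the control bars against 12.2% and 6.96% of the mimic bars.

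Other genes of peptide digestion and absorption were taken in 5 lists of 82 genes, of which 69 were tested. None of the 69 was higher and 3 were lower (4.35%) at an adjusted p under 0.05 in edgeR, beside 1.21% and 2.17% of all genes. At an unadjusted p under 0.05 in edgeR 12 were higher and 6 lower, beside 4201 of all 17155 tested genes. The unadjusted counts of the single lists below are to be set beside the same 4201 of 17155. DESeq2 gave 8 genes, among them Maf, Prdm1, Slc6a20a, Rnpep, Cdx1, Cdx2 and Klf5, beside 1288 of the 29212 genes it fitted. The 29212 include low-count genes outside the 17155, while all 69 are within them, so these shares are not alike. The median log2 fold change of the 69 was 0.06, against -0.01 for all genes.

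Of 8 other brush border peptidases, 6 were tested. Ggt1, a γ-glutamyltransferase, had 11.7 and 32.3 TPM in the controls against 16.0 and 22.8 in the mimic libraries, with a log2 fold change of -0.08 and an adjusted p of 0.905 in edgeR. Mep1a, a subunit of meprin, had 17.8 and 14.8 TPM in the controls against 11.5 and 17.7, with a log2 fold change of -0.23 and an adjusted p of 0.438 in edgeR. The groups of both genes overlapped. Folh1 was at 0 in every library.

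Among 22 family relatives of the members, 13 were tested and none passed an adjusted p of 0.05 in edgeR, with 1 higher at an unadjusted p under 0.05 and none of them called by DESeq2. The most abundant were Xpnpep1, the cytosolic aminopeptidase P, with a log2 fold change of 0.31, Dpp8, a cytosolic dipeptidyl peptidase, with 0.06, and Erap1, an aminopeptidase of the endoplasmic reticulum, with 0.18. Slc15a4, a lysosomal relative of the peptide carriers, had 11.3 and 18.6 TPM in the controls against 21.1 and 12.5 in the mimic libraries and a log2 fold change of 0.02. Slc15a3 and Slc15a5 were at or below 0.190 TPM and were not tested.

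The 19 intracellular peptidases, which finish the digestion of absorbed peptides, were all tested and none passed in edgeR, with 6 higher at an unadjusted p under 0.05. The nearest was Rnpep (aminopeptidase B, adjusted p = 0.0634 in edgeR, log2 fold change 0.58), which DESeq2 called. The most abundant were Lta4h with a log2 fold change of 0.25, Npepps with -0.05 and Ide, the insulin-degrading enzyme, with 0.41. The list's median log2 fold change was 0.19.

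The amino acid transporters and their partners gave 15 tested genes of 17. None passed in edgeR and 3 were lower at an unadjusted p under 0.05. Slc6a20a, an imino acid carrier, was the nearest with 4.62 and 5.54 TPM in the controls against 3.05 and 2.29, a log2 fold change of -0.98 and an adjusted p of 0.0563 in edgeR, and DESeq2 called it. The most abundant were Slc1a5 with a log2 fold change of 0.21, Slc3a2 with -0.09 and Slc9a3r1 with -0.03.

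Of 16 transcription factors of enterocytes, 2 were lower at an adjusted p under 0.05 and past 2-fold. Maf, a basic leucine zipper factor of mature enterocytes, had 8.84 and 5.31 TPM in the controls against 1.97 and 3.25 in the mimic libraries, a log2 fold change of -1.51 with an SE of 0.28 and an adjusted p of 0.0387 in edgeR. Prdm1, a repressor that marks the immature intestine, had 1.52 and 1.51 TPM in the controls against 0.640 and 0.840 in the mimic libraries, a log2 fold change of -1.01 with an SE of 0.21 and an adjusted p of 0.0492 in edgeR. Its adjusted p in edgeR was 0.154 without mimic replicate 3, 0.0715 without mimic replicate 4 and 0.0758 without control replicate 1. The most abundant were Hnf4a, Klf5 and Elf3, with log2 fold changes of 0.24, 0.37 and 0.28, and 4 factors were higher at an unadjusted p under 0.05. By limma on log2(TPM + 1) the adjusted p was 0.145 for Maf and 0.210 for Prdm1. Maf also missed the threshold in edgeR's robust test (adjusted p = 0.0927) and Prdm1 with library totals alone as the scaling (adjusted p = 0.0547 in edgeR).

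**Figure D4:**
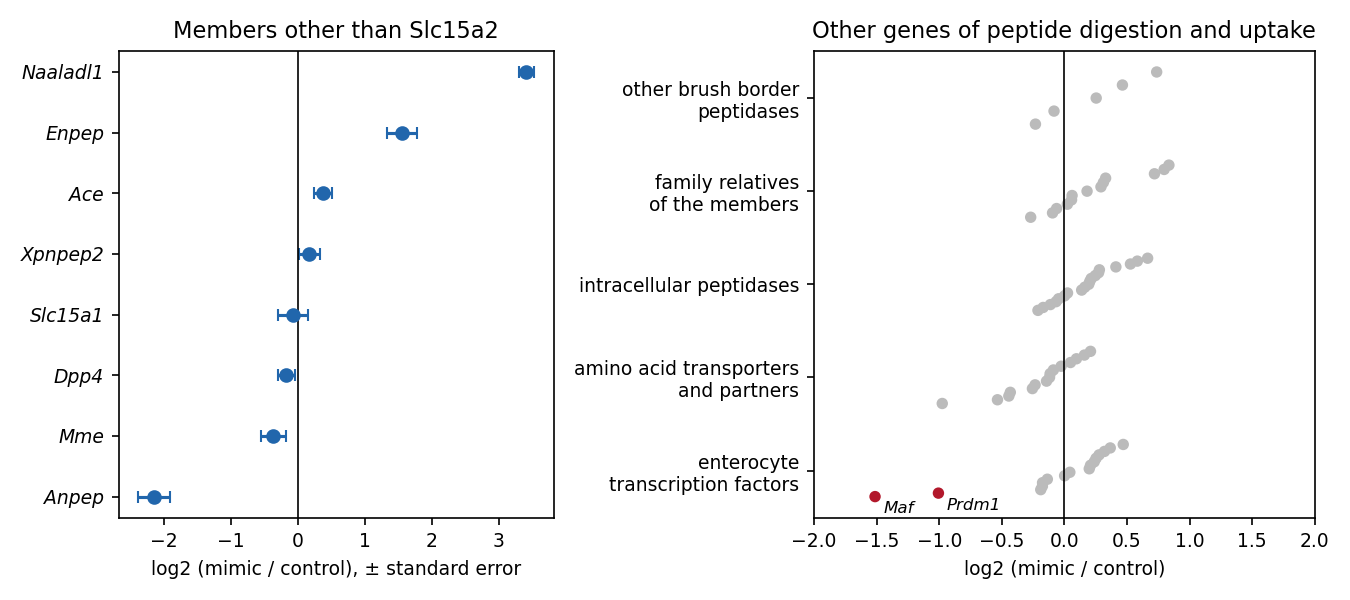
Log2 fold change, mimic over control. Left, the members other than Slc15a2 with bars of 1 standard error. Right, the genes of the 5 other lists that are reported, one point per tested gene, with red for an adjusted p under 0.05 in edgeR. Naaladl1 (3.42), Enpep (1.56) and Anpep (-2.14) stand away from 0, and Maf and Prdm1 are the red points.

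The genes next to the members on the chromosome were compared as well. Of 36 tested neighbours, taken as the nearest 2 on either side, none was higher and 2 were lower at an adjusted p under 0.05 in edgeR. At an unadjusted p under 0.05 in edgeR 9 were higher and 5 lower, beside 4201 of all 17155 tested genes. Their median log2 fold change was 0.14. DESeq2 called 5 neighbours, beside 1288 of the 29212 genes it fitted. The 29212 include low-count genes outside the 17155, while every neighbour is within them, so these shares are not alike. Mesp2, a mesoderm transcription factor gene 8364 bases from Anpep, had 131 and 82 counts in the controls against 11 and 32 in the mimic libraries (log2 fold change -2.25, adjusted p = 0.0386 in edgeR). Dock9, a guanine nucleotide exchange factor gene 36794 bases from Slc15a1, had a log2 fold change of -0.50 and an adjusted p of 0.0481 in edgeR. Without control replicate 1 the adjusted p in edgeR was 0.0586 for Mesp2 and 0.0764 for Dock9, and for Dock9 it was also above 0.05 without mimic replicate 3 (0.254) or mimic replicate 4 (0.0575). Gm44974 overlaps Anpep on the same strand and had 492 and 217 counts in the controls against 34 and 72 (log2 fold change -2.66, adjusted p = 0.0189 in edgeR), and the counts of both genes were whole in all 4 libraries. Slc15a2, Enpep, Dpp4 and Ace each overlap a gene on the opposite strand (Gm8425, Gm42628, Gm13561 and Gm11651), and whether counting used the strand is not given in the sources used here. The neighbours of Slc15a2, Naaladl1 and Enpep did not pass in edgeR, and the nearest to doing so was Snx15, 3607 bases from Naaladl1, with a log2 fold change of 0.61 and an adjusted p of 0.0545. Among the fits to all 4 libraries, Snx15 was higher and past the threshold in DESeq2, in edgeR's exact and robust tests, with library totals alone and without a filter on low counts. Ildr1, 23373 bases from Slc15a2, had a log2 fold change of 0.79 and an adjusted p of 0.0888 in edgeR and was past the threshold in DESeq2, in the exact test and without a filter. Elovl6, 199635 bases from Enpep, had a log2 fold change of 0.34 and, among the fits to all 4 libraries, was past the threshold without a filter. Each neighbour of Naaladl1 had a log2 fold change above 0, from 0.21 to 1.47, beside a median of -0.01 over all tested genes. The 1.47 was that of AC131692.1, which had only 11 and 3 counts in the controls against 23 and 14 in the mimic libraries (SE 0.60). Whether these neighbours moved together was not tested. Wdr93, 35853 bases from Anpep, had 58 and 44 counts in the controls against 9 and 27 in the mimic libraries (log2 fold change -1.46, adjusted p = 0.110 in edgeR). Among the fits to all 4 libraries, Wdr93 was past the threshold in the exact test and without a filter. On the other side of Anpep, Ap3s2 and Arpin had log2 fold changes of -0.02 and 0.15.

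Patterns over the 4 libraries were compared by the Euclidean distance between centred log2(CPM + 1) values, a description over few points. The pattern of Slc15a2 was nearest to that of Naaladl1 (distance 0.122), followed by Prss32 (0.817), the pseudogene Gm9770 (0.878), Cubn (0.895) and Slc5a8 (0.899). With 1 added to each value, the distance understates the rise of Slc15a2, whose controls are near 0. Its nearness to Naaladl1 and the order of the genes after it therefore depend on that added 1. Both genes were also picked with this contrast known, so nothing is read from their nearness. The pattern of Anpep was nearest to that of Egr1 (0.111), and the 5 nearest also held Gm44974 (0.169), Oasl2 (0.203) and Arrdc3 (0.25).

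A last readout is the mean transcript length that the deposited values imply for each gene. RSEM divides the expected count by an effective length to obtain TPM, so that their ratio, scaled within a library, gives the mean length of the transcripts to which the reads were assigned. For 437 genes with a single annotated transcript the length so obtained was within 20 bases of the annotated one in 97.5% to 97.7% of cases. Naaladl1 came out at 2491 to 2494 bases against its annotated 2491, and Slc15a1 at 3122 to 3125 against 3121. Anpep came out at 3380 to 3425 bases, near its transcript Anpep-201 of 3422 bases, whose start at 79842352 lies downstream of the start of Anpep-202 at 79848210. A mixture of longer and shorter transcripts could give the same mean.

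The lengths of Enpep (3238 to 3385 bases), Mme (4308 to 4522), Ace (4363 to 4418), Xpnpep2 (3216 to 3347) and Dpp4 (3565 to 4031) fell between those of their annotated transcripts. For these and the genes above, the mimic mean was within -0.905% and 2.35% of the control mean. Over 10916 genes with at least 100 counts and 1 TPM, 7.53% shifted by more than 10%. Slc15a2 came out at 1609 and 1554 bases in the mimic libraries, below its 2 longest coding transcripts of 3994 and 2158 bases and above its other annotated transcripts, which run from 430 to 1292 bases, and its 3 control counts give no usable length. How its reads were divided among these transcripts is not shown by the mean, but its TPM would be lower if all of them belonged to the longest form. Its shorter annotated transcripts include retained introns, processed transcripts and short coding forms. The counts are whole numbers within 0.005 in every library for the members other than Dpp4, which is whole in 0 of 4, and Ace, which is whole in 2, and RSEM gives a gene a non-whole count where it splits reads with other genes.

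**Figure D5:**
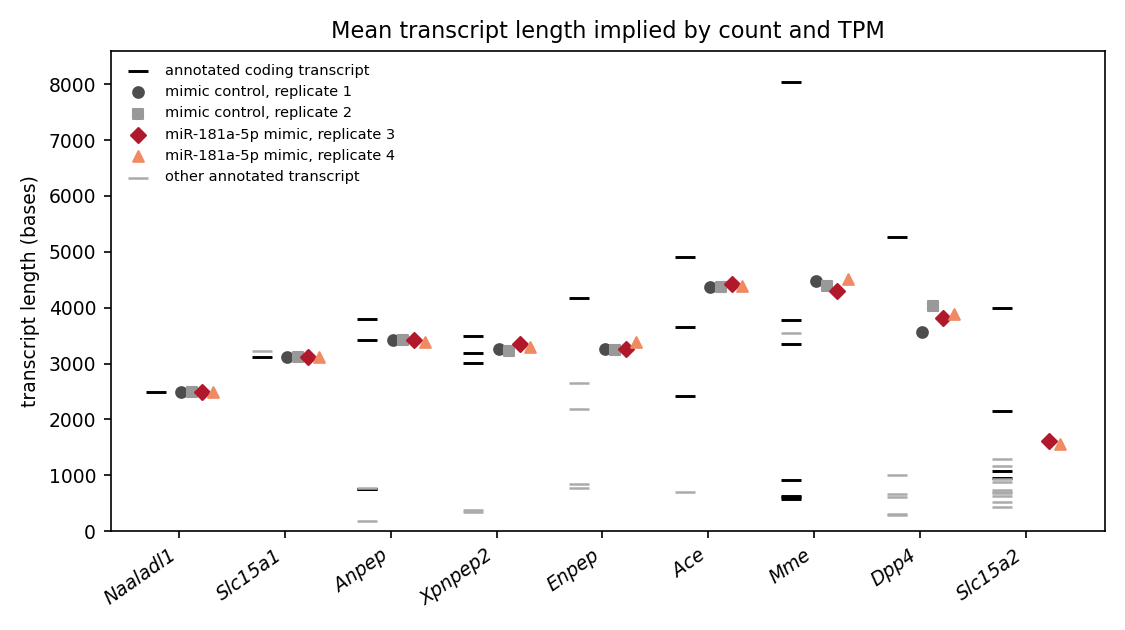
Mean transcript length implied by the ratio of expected count to TPM (symbols, one per library) beside the lengths of annotated transcripts (short lines, black for coding and grey for others), in bases. Slc15a1 and Naaladl1 sit on their annotated coding length, and Slc15a2 sits at 1609 and 1554 bases, below its 2 longest coding transcripts of 3994 and 2158 bases; its control libraries are not drawn.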

How the data were processed

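RNA-seq of mouse SI organoids was analysed, 2 mimic control and 2 miR-181a-5p mimic libraries. The authors trimmed reads with Trimmomatic and quantified them with RSEM against GRCm38. The expected counts, deposited unnormalized, are RSEM's estimates made by the authors, who also deposited TPM. The labels describe poly(A) enrichment and the supplementary methods ribosomal RNA depletion. The annotation release is not given in the sources used here. Both files hold 3 more columns that fit no sample here and were left out.

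After rounding, the groups were compared by edgeR (version 4.0.16, under R 4.3.3) with filterByExpr, TMM factors, glmQLFit and glmQLFTest. Benjamini-Hochberg adjustment covered 17155 genes, and the steps were tested on simulated counts. The standard error is the size of the log2 fold change divided by the square root of F. Symbols matched 55141 of 55487 genes. Alternatives used DESeq2 1.42.0, limma 3.58.1 on TPM, other factors and filters, and each library left out. Members and lists were chosen with earlier results of these data known. The genes named besides the members are the called genes and up to 3 most abundant genes of each list, the called neighbours, and the 5 nearest patterns. Slc15a3, Slc15a4, Slc15a5, Folh1, Rnpep, Slc6a20a, Snx15, Ildr1, Elovl6, Wdr93, Ap3s2, Arpin, AC131692.1 and Gm44974 were named after their values were seen, as were markers outside these rules. Protein sequences were not analysed here. Results of some genes in the lists are not reported here.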

Additional observations from a re-analysis of the deposited data

How the results depend on the processing

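Slc15a2, Naaladl1, Enpep and Anpep kept their direction under all alternatives that tested them (14 for Slc15a2, which a filter of at least 10 counts in every library removed, and 15 for the others), with 3 or 4 members at 2-fold or more. These genes were picked with this contrast known and their groups did not overlap. A change of direction was therefore hardly possible, and nothing is read from its absence. Dpp4, Mme and Ace kept their sign as well, while Slc15a1 changed sign without mimic replicate 3 or control replicate 2 and Xpnpep2 without mimic replicate 4. Over the genes that each fit covered, the 339 calls became 730 with edgeR's exact test, 1020 without a filter, and 27, 71 and 2 by limma on log2(TPM + 0.1), log2(TPM + 1) and log2(TPM + 1) without a filter, with 16, 41 and 0 of them lower. They ranged from 321 to 742 when 1 library was left out, with 545 without mimic replicate 4 and 742 without control replicate 2. The 3 called genes of the peptide lists became 8 with DESeq2, 8 with the exact test, 14 without a filter and 0 in each TPM fit, and ranged from 2 to 10 with 1 library left out. Called neighbours, 2 in the report, became 5 with DESeq2, 1 with RLE factors, 7 with the exact test, 9 without a filter and 0 in each TPM fit, and ranged from 1 to 6 with 1 library left out. When a library was left out, the lone library of its group was assumed to vary like the other group. Adjusted p ran from 1.56e-20 to 0.325 for Maf, from 0.00225 to 0.325 for Prdm1, from 2.63e-09 to 0.314 for Mesp2 and from 0.00123 to 0.380 for Dock9, over edgeR, DESeq2 and limma. The robust test left 3 of the 9 members past the rule, without Enpep, and the TPM fits 1, 2 and 0. The cause of these changes was not tested. No paired analysis was possible because the groups share no replicate number. For Slc15a2, with 3 and 0 control counts, depth limits the ratio, whose counting interval was 65.8 to 941.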
